A study of Mus musculus with 95 samples.

Results

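Among the 20175 probes of a spatial transcriptome panel of mouse thymus, 100 were chosen because their pooled counts were lower in thymoma than in control thymus in epithelium, in T cells and in B cells alike. The choice was made on measured values: counts were pooled over the mice of each class, scaled to the class total as CPM, a fixed multiple of a probe's share of all counts, and expressed as log2(CPM+1). A probe could be chosen if its levels in the 5 control classes lay within 0.5 on the log2 scale, if thymoma epithelium and thymoma T cells differed by less than 0.5, and if the standard deviation (SD) over the 4 thymoma mice in epithelium was below 0.6. Of the 15986 probes within these limits, the 100 whose smallest difference among the 5 contrasts of control minus thymoma was largest became members. The contrasts were cortical epithelium and medullary epithelium against thymoma epithelium, cortical T cells and medullary T cells against thymoma T cells, and control B cells against thymoma B cells.

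The series concerns thymoma in knock-in mice that carry L424H in GTF2I. The thymoma mice 1042, 1044, 1082 and 1157 were Gtf2ifl/wt Foxn1-Cre/wt, the control mice 1057 and 1059 were Gtf2ifl/fl, and the control mice 1172 and 1143 were Gtf2ifl/wt, so every mouse carried at least 1 floxed Gtf2i allele and no control mouse is labelled with Cre. Sections of fixed thymus were hybridised with the probe panel on the GeoMx Digital Spatial Profiler, and tags were released from 95 segments masked by pan-cytokeratin (epithelium), CD3 (T cells) or B220 (B cells). Segments were added up by mouse and class into 30 libraries, 18 from control and 12 from thymoma. Each of the 4 slides held 2 mice of 1 genotype, so slide and genotype cannot be told apart. Control cortex and B cells came from 4 mice and control medulla from 3, because no medulla of mouse 1059 is analysed here, and each thymoma class came from 4 mice.

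GTF2I is a general transcription factor of the TFII-I family, and the L424H substitution is the recurrent mutation of human thymoma. Foxn1 is the transcription factor that sets the identity of thymic epithelial cells, so Cre driven from it acts in epithelium, while T and B cells are neighbours that derive from blood precursors. Thymic cortex and medulla hold different epithelial cells and different stages of T cell maturation, which the chosen probes, being level across the control classes, do not separate by construction. The files give probe IDs only, and no table used here pairs them with genes, so no member has a gene name or role here and the labelled cell types could not be checked against marker genes. A mask can also collect signal from cells that touch or overlap the marked ones. In such segments, fewer cells of a type and less RNA per cell cannot be told apart.

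Control mouse 1143 stood apart from all other mice and is named here before any result. Its 5 libraries held between 45.4 and 77.4 counts per nucleus, where the remaining 25 libraries held 544 to 3160, and it gave between 0.853% and 3.68% of the pooled counts of its classes. The pooled control levels that chose the members therefore hardly used this mouse. Its members summed to less than in every thymoma library, so results are given with it and without it. The median member was nevertheless above every thymoma library of the same compartment in its B cells and medulla (27.9 to 31.3 CPM). In its B cells that median lay below the 47.0 CPM that 3 counts made there, and 21 members were at 0. Mouse 1057 gave between 5.85% and 70.0% of the pooled counts of a control class. With an equal weight for each mouse in place of pooling, 8 of the 100 members were chosen again, and 46 when mouse 1143 was also left out. The list is therefore one drawn from the deeper libraries.

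The members' summed level was lower in every thymoma mouse than in every control mouse except mouse 1143, in all classes. In cortical epithelium the 100 members summed to 18114 CPM in mouse 1057, 15754 in mouse 1059 and 19742 in mouse 1172, but to 5847 in mouse 1143. In medullary epithelium the sum was 16697 CPM in mouse 1057, 21486 in mouse 1172 and 5768 in mouse 1143. In thymoma epithelium it was 6659 CPM in mouse 1042, 9752 in mouse 1044, 11284 in mouse 1082 and 8212 in mouse 1157. Every thymoma epithelial library was below the libraries of mice 1057, 1059 and 1172 and above those of mouse 1143.

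The T cell libraries had the same arrangement. The sum in cortical T cells was 19682 CPM in mouse 1057, 18076 in mouse 1059, 22077 in mouse 1172 and 5692 in mouse 1143. In medullary T cells it was 18674 CPM in mouse 1057, 23116 in mouse 1172 and 6317 in mouse 1143. In thymoma T cells it was 7773 CPM in mouse 1042, 11633 in mouse 1044, 13631 in mouse 1082 and 10566 in mouse 1157. The 4 thymoma mice kept the order seen in epithelium, with mouse 1042 lowest and mouse 1082 highest.

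The B cell libraries lay closer together. Control B cells summed to 15269 CPM in mouse 1057, 17159 in mouse 1059, 20456 in mouse 1172 and 5219 in mouse 1143. Thymoma B cells summed to 11241 CPM in mouse 1042, 13460 in mouse 1044, 12087 in mouse 1082 and 12539 in mouse 1157. The order of the thymoma mice in epithelium and T cells was not repeated in B cells, where mouse 1044 was highest. Over groups, the sum was 12332 ± 925 CPM (SD, n = 4) in thymoma B cells, 10901 ± 2442 (SD, n = 4) in thymoma T cells and 8977 ± 1990 (SD, n = 4) in thymoma epithelium. Without mouse 1143, control means ran from 17628 ± 2625 CPM (SD, n = 3) in B cells to 20895 ± 3142 (SD, n = 2) in medullary T cells. With it, the cortical epithelial mean was 14864 ± 6230 CPM (SD, n = 4) against 17870 ± 2006 (SD, n = 3) without it. The B cell mean with it was 14526 ± 6564 CPM (SD, n = 4), nearer to that of thymoma B cells. The other means with it were 14651 ± 8057 CPM (SD, n = 3) in medullary epithelium, 16382 ± 7314 (SD, n = 4) in cortical T cells and 16036 ± 8705 (SD, n = 3) in medullary T cells. These contrasts chose the members, so no test is given on the sums.

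**Figure D1:**
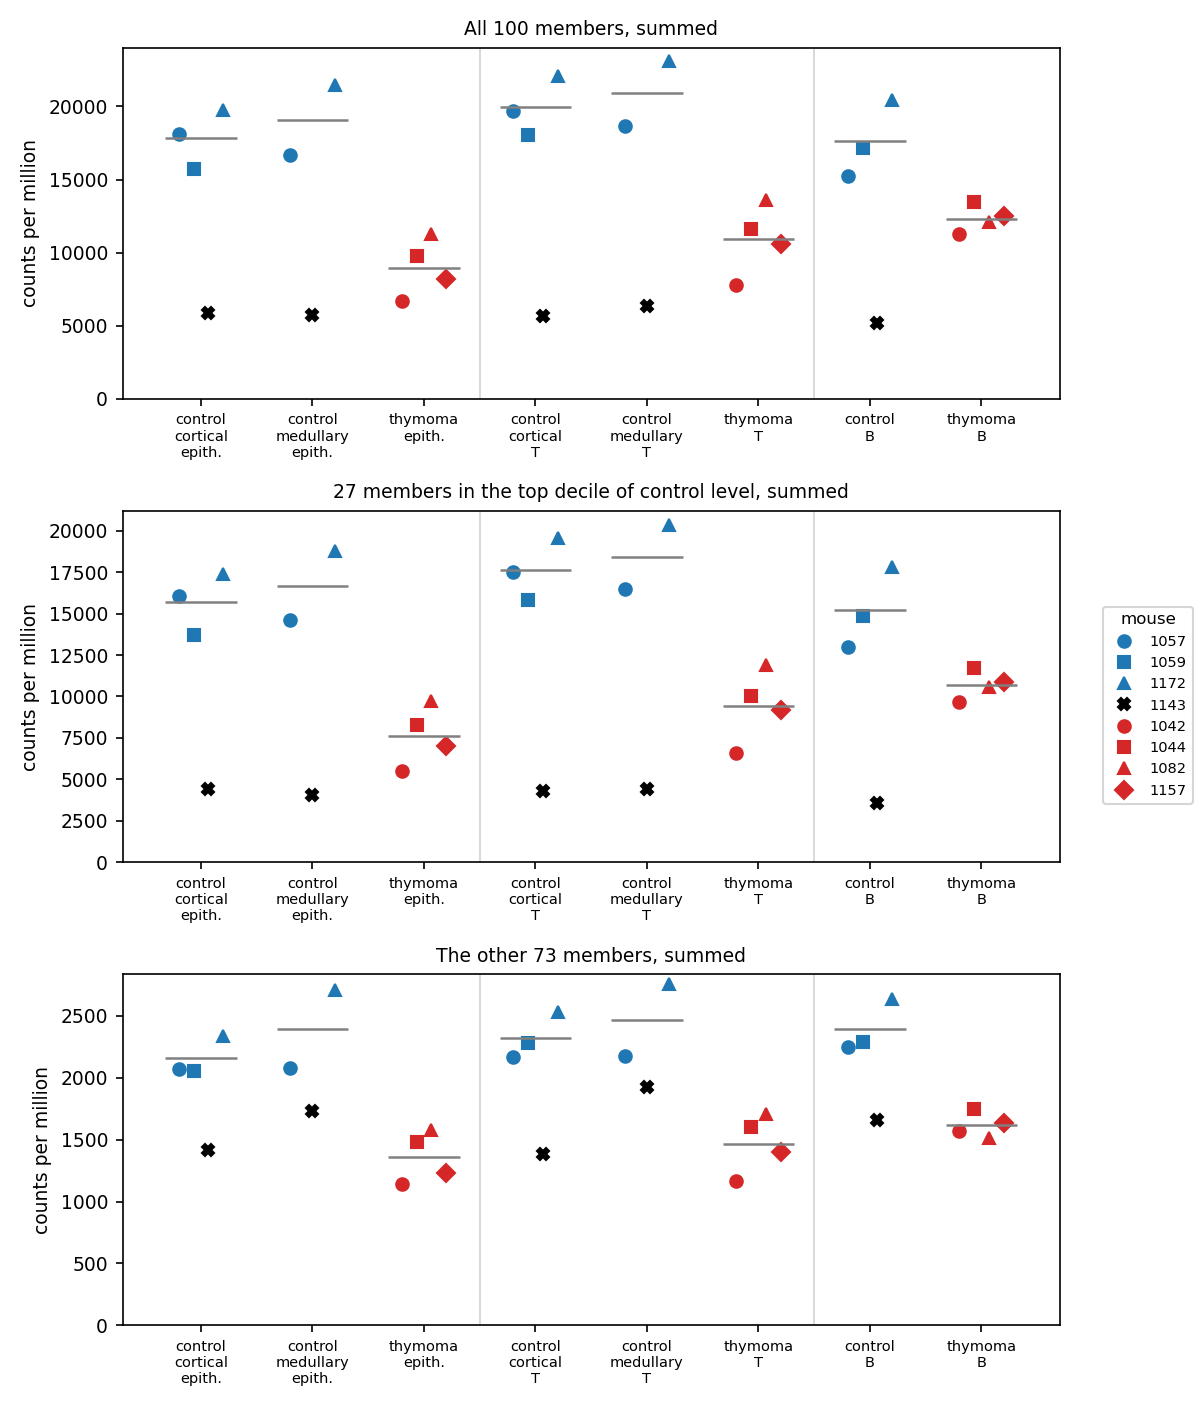
Summed CPM of the 100 members, of the 27 members in the top decile of control level and of the other 73, with 1 point per mouse and class and grey lines at the group mean without mouse 1143. Thymoma points (red) lie between 6659 and 13631 CPM in the upper panel, below every control point except the 5 of mouse 1143 (black crosses).

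Single segments gave the same picture as the mouse totals, which is largely built in, since their counts were pooled to choose the members. Segments of a mouse are not replicates, so the counts below only describe. The summed level over the 37 thymoma segments had a lowest value of 6285 CPM, a median of 10950 and a highest value of 14595. The 43 control segments of mice 1057, 1059 and 1172 had a lowest value of 13205 CPM, a median of 19100 and a highest value of 25132. Of these 43 control segments, 40 were above the highest thymoma segment, and 32 of the 37 thymoma segments were below the lowest of them. Of the 15 segments of mouse 1143, 12 were below the lowest thymoma segment. Within a mouse and class, the highest segment was at most 1.46 times the lowest, in thymoma epithelium of mouse 1157, so the position of mouse 1143 did not come from 1 segment. Saturation, the percentage of aligned reads that added no new count, was 67.6% to 80.1% in thymoma segments. It was 78.4% to 90.1% in segments of mice 1057, 1059 and 1172, and 75.9% to 86.8% in those of mouse 1143. Saturation was thus mostly lower in thymoma than in those 3 control mice, and its part in the sums was not tested.

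The differences that chose the members were modest and graded. The smallest of the 5 differences, the value that ranked the probes, was 0.935 on the log2 scale for the first member, 0.845 for the second, 0.582 for the tenth and 0.497 for the fiftieth. The last member had 0.458284 and the first probe outside the list 0.458236, so no gap separates members from the probes that follow. The B cell contrast was the smallest of the 5 for 71 members, cortical epithelium for 16, cortical T cells for 7, medullary T cells for 4 and medullary epithelium for 2. The members' median differences were 0.61 for cortical and 0.74 for medullary epithelium, 0.62 for cortical and 0.74 for medullary T cells, and 0.51 for B cells.

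The plain CPM scale itself put most probes lower in thymoma. Over all 20175 probes the median difference was 0.20 for cortical and 0.34 for medullary epithelium, 0.23 for cortical and 0.35 for medullary T cells, and 0.07 for B cells. Within the limits of the choice, 8495 probes (53.1%) were lower in all 5 contrasts and 1198 (7.49%) were higher in all 5. The B cell contrast carried the least of this shift. With the trimmed-mean (TMM) scaling of edgeR, which sets libraries level over most probes, the median log2 fold change of all probes lay between -0.09 for thymoma against medullary epithelium and -0.01 for B cells. The members' medians on that scale were -0.48 for cortical and -0.42 for medullary epithelium, -0.40 for cortical and -0.39 for medullary T cells, and -0.46 for B cells. With TMM-scaled pooled libraries, 5140 of the 16168 probes within the limits were lower in all 5 contrasts and 3046 were higher. On plain CPM, the same choice turned upside down reached 0.960 for its first probe but only 0.265 for its hundredth.

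A pair of members, picked by a rule on rank and signal, show how differently members could behave in mouse 1143. RTS0067343, the first-ranked member, had 145 CPM in mouse 1057, 91.9 in mouse 1059, 162 in mouse 1172 and 154 in mouse 1143 in cortical epithelium. Its level in thymoma epithelium was 39.3 CPM in mouse 1042, 64.2 in mouse 1044, 67.5 in mouse 1082 and 49.7 in mouse 1157. The groups did not overlap, and mouse 1143 was among the high control mice, although its value rested on 16 counts.

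In cortical T cells RTS0067343 had 153 CPM in mouse 1057, 109 in mouse 1059, 180 in mouse 1172 and 130 in mouse 1143, against 47.0, 71.0, 79.7 and 61.1 CPM in thymoma T cells of mice 1042, 1044, 1082 and 1157. In B cells it had 152 CPM in mouse 1057, 105 in mouse 1059, 183 in mouse 1172 and 188 in mouse 1143, against 56.6, 76.8, 71.8 and 70.0 CPM in the thymoma mice in the same order. The B cell value of mouse 1143 rested on 12 counts. Every thymoma library was below every control library of its compartment. The group means for RTS0067343 were 138 ± 31.8 CPM (SD, n = 4) in cortical epithelium and 154 ± 30.5 (SD, n = 3) in medullary epithelium, against 55.2 ± 13.1 (SD, n = 4) in thymoma epithelium. In medullary T cells the mean was 159 ± 35.5 CPM (SD, n = 3), and in thymoma T cells it was 64.7 ± 14.0 (SD, n = 4).

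RTS0067780, the member with the highest mean CPM among the others, behaved otherwise. In cortical epithelium it had 8022 CPM in mouse 1057, 5942 in mouse 1059 and 8798 in mouse 1172, but 1356 in mouse 1143. Its level in thymoma epithelium was 2687 CPM in mouse 1042, 3887 in mouse 1044, 4421 in mouse 1082 and 3326 in mouse 1157. Thymoma epithelium lay below 3 control mice and above the fourth.

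In T cells RTS0067780 was at 8734, 6875 and 9804 CPM in cortical libraries of mice 1057, 1059 and 1172, at 1420 CPM in mouse 1143 and between 3277 and 5437 CPM in thymoma. In B cells it was at 6441, 6678 and 8912 CPM in those 3 control mice, at 1254 CPM in mouse 1143 and between 4605 and 5517 CPM in thymoma. The cortical epithelial mean of RTS0067780 was 6030 ± 3341 CPM (SD, n = 4) with mouse 1143 and 7587 ± 1477 (SD, n = 3) without it, against 3580 ± 745 (SD, n = 4) in thymoma epithelium. This 1 probe made up between 37.7% and 44.6% of the members' counts in the other control libraries, between 39.2% and 42.2% in thymoma and between 22.8% and 24.95% in mouse 1143. Without it, the mean log2 difference of the members' sum between cortical and thymoma epithelium was 0.66 rather than 0.61, both with mouse 1143.

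The members formed 2 tiers of signal. Probes differ in how well they hybridise, so CPM ranks probe signal and not transcript number. By mean control level, 27 members were in the top decile of all probes, 3 in the next decile and 70 in the lower 8 deciles. The median control level on the log2 scale was 7.47 for the 27 strong members and 4.92 for the other 73. The median difference of the strong members was 0.94 in cortical epithelium, 0.90 in cortical T cells and 0.51 in B cells. For the other 73 it was 0.56, 0.59 and 0.51. On this pooled scale strong members thus had larger differences in epithelium and T cells. Both tiers had the same median in B cells, where the limit of the choice was close. In the edgeR fits with all mice, the median log2 fold changes of strong and other members were -0.69 and -0.43 against cortical epithelium. They were -0.42 and -0.42 against medullary epithelium, and -0.44 and -0.39 against cortical T cells. Without mouse 1143 they were -0.77 and -0.45 against medullary epithelium.

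Across the whole panel the relation to signal ran the other way. Probes of the top decile had a median difference of -0.07 in cortical epithelium, -0.15 in cortical T cells and -0.02 in B cells, that is, slightly higher in thymoma. In the third decile, by contrast, the median was 0.32, 0.36 and 0.11. On plain CPM, 69.4% of the probes within the limits in the third decile but 24.6% in the top decile were lower in all 5 contrasts. The 27 strong members were therefore lower in a range of signal where most probes were not. Of the 73 weaker members, 59 were in deciles 1 to 6, where most probes within the limits were lower in all 5 contrasts, and 14 in deciles 7 to 9, where most were not. Of the 100 probes chosen by the reversed rule, 46 were in the top decile.

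**Figure D2:**
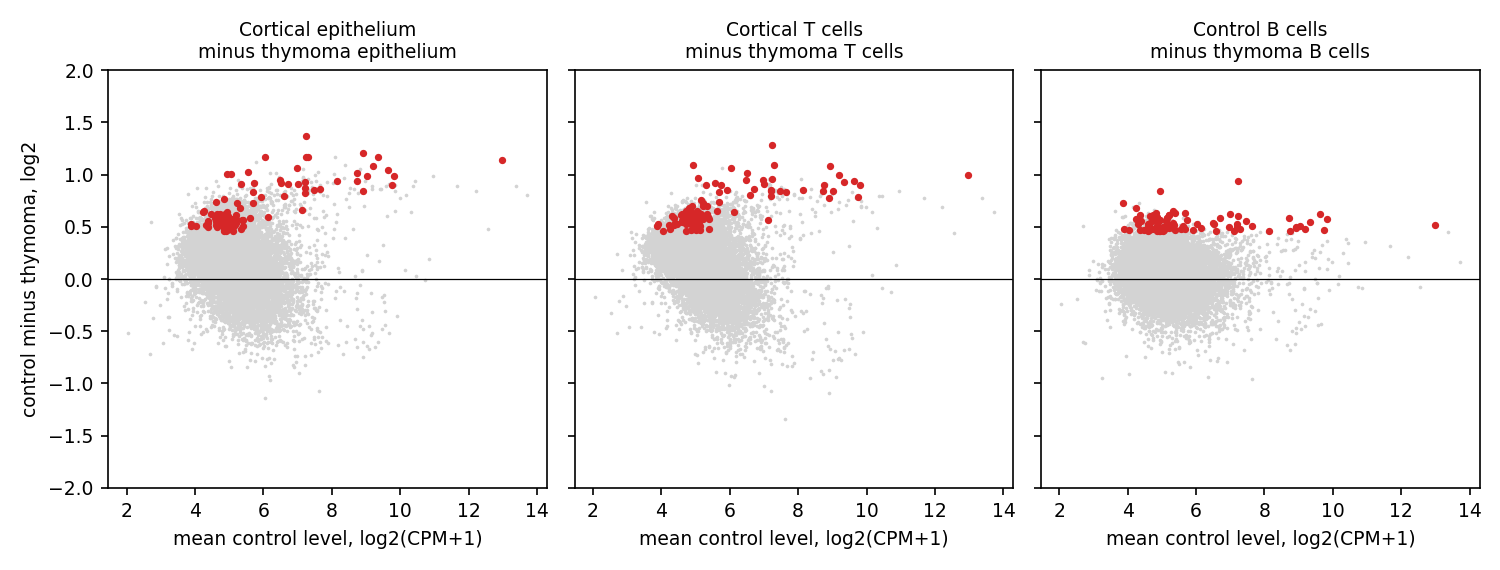
Control minus thymoma difference on the log2(CPM+1) scale against mean control level, for the 15986 probes within the limits (grey) and the 100 members (red), in cortical epithelium, cortical T cells and B cells. Red points lie above 0.458 in each panel because the choice required it, and strong members lie higher in the first 2 panels than in the B cell panel.

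Counts of members that separated the mice depended on mouse 1143. With all mice, every thymoma mouse was below every control mouse for 26 members in cortical epithelium, where 11.1% of all probes did so. The counts were 36 members in medullary epithelium (32.8% of all probes), 17 in cortical T cells (11.1%), 39 in medullary T cells (30.1%) and 21 in B cells (3.76%). Without mouse 1143 they were 87 members in cortical epithelium (24.1% of all probes), 97 in medullary epithelium (51%), 95 in cortical T cells (31.1%), 96 in medullary T cells (51.7%) and 67 in B cells (9.39%). These contrasts chose the members, and the medullary control groups then held only 2 mice, so nothing is read from the counts.

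The edgeR quasi-likelihood test over all probes, with a Benjamini-Hochberg adjusted p below 0.05, is likewise given as a description. It called 18 members lower in thymoma than in cortical epithelium (1.03% of all probes were called lower) and 18 against medullary epithelium (2.81%). It called 1 member lower against cortical T cells (0.00496% of all probes), 9 against medullary T cells (1.25%) and 0 in B cells (0%). In B cells 79 members of 1832 probes had an unadjusted p below 0.05 in edgeR, and DESeq2 called 1 member. Without mouse 1143 the counts were 51 (3.56%) and 51 (5.82%) for the epithelia, 78 (8.32%) for cortical T cells, 33 (4.8%) for medullary T cells and 0 (0%) for B cells. B cells without mouse 1143 had 87 members with an unadjusted p below 0.05. No member was called higher in any of these fits.

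Each mouse was also left out in turn, 100 probes were chosen anew from the other 7 mice, and the mouse left out was set against the pooled other group. Only 1 side of each difference was held out, since the pooled group had itself served to choose the probes, so a median above that of all probes is partly built in. The other mouse of the same slide also stayed in the choice, so the slide was not held out. Left-out thymoma mouse 1042 was below the pooled cortical epithelium for 100 of 100 probes, with a median difference of 0.89 against 0.29 over all probes. Mouse 1044 was lower for 95 of 100, with 0.54 against 0.12. Mouse 1082 was lower for 100 of 100, with 0.35 against 0.10, and mouse 1157 for 100 of 100, with 0.75 against 0.27. Over all probes, between 64.3% and 73.7% were lower in these 4 mice in that contrast.

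The same held in the other classes. In T cells against cortical T cells the left-out thymoma mice 1042, 1044, 1082 and 1157 had medians of 0.99, 0.51, 0.35 and 0.68 over the chosen probes, against 0.38, 0.15, 0.10 and 0.25 over all probes. In B cells the medians were 0.57, 0.37, 0.62 and 0.45, against 0.06, 0.05, 0.13 and 0.08. Over the 20 combinations of left-out thymoma mouse and contrast, between 95 and 100 of the 100 chosen probes were lower in thymoma, where between 59.0% and 77.5% of all probes were. The left-out thymoma mice were all compared with the same pooled controls, so these values share that side, and no test is given on them.

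Left-out control mice were less uniform. Mice 1057, 1059 and 1172 were above pooled thymoma epithelium in cortical epithelium for 100, 96 and 93 of the 100 chosen probes, with medians of 0.48, 0.62 and 0.72 against 0.18, 0.10 and 0.25 over all probes. In B cells they were above thymoma for 67, 89 and 92 probes, with medians of 0.15, 0.29 and 0.48 against 0.0031, 0.02 and 0.15. The B cell library of mouse 1057 was the weakest of the 13 combinations of these mice and contrasts, and it came from 1 segment of 263 nuclei with 413591 counts.

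Left-out control mouse 1143 went the other way in most contrasts. It was above thymoma for 35 of 100 probes in cortical epithelium, with a median of -0.52 against -0.07 over all probes, and for 27 of 100 in cortical T cells, with -0.51 against -0.05. In B cells it was above thymoma for 33 of 100, with a median of -0.54 against -0.16. In medulla the counts were 54 for epithelium and 48 for T cells, with medians of 0.06 and -0.06, where all probes had 0.22 and 0.17. The choice without mouse 1143 shared 95 members with the choice that included it, so the members themselves hardly depended on its presence.

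**Figure D3:**
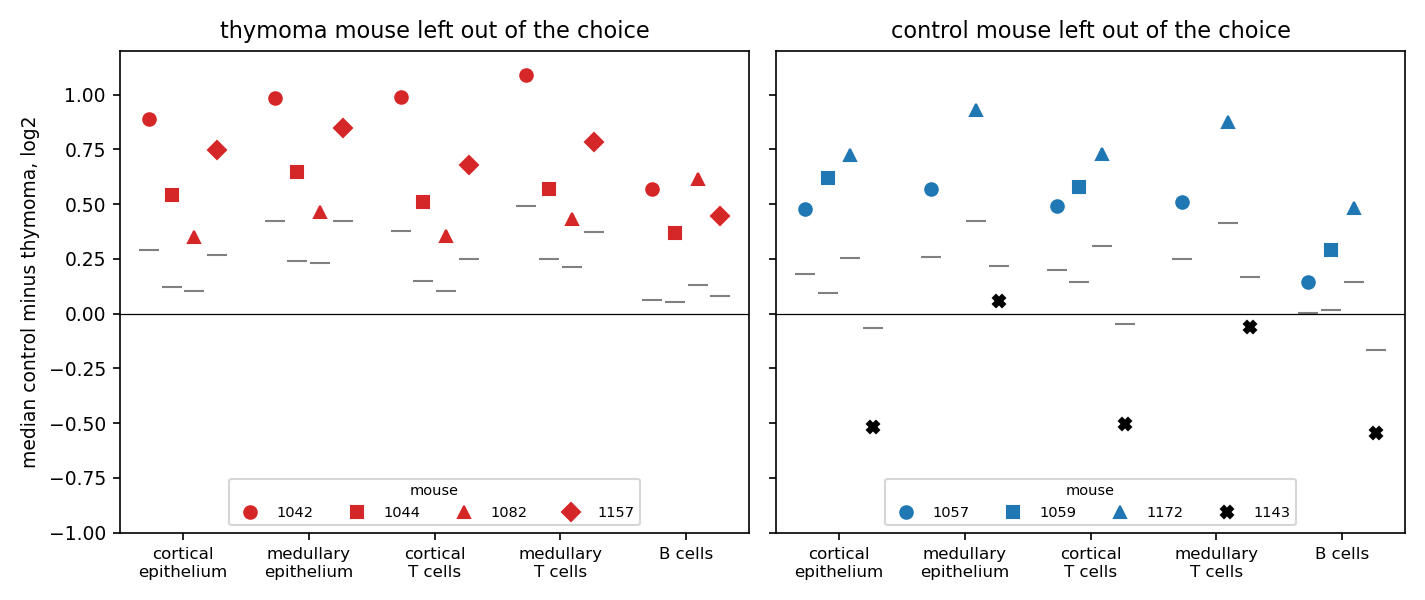
Median control minus thymoma difference (log2) in a mouse left out of the choice, over the 100 probes chosen from the other 7 mice (symbols) and over all 20175 probes (grey dashes), by contrast. Left, the 4 thymoma mice lie between 0.35 and 1.09, all above their dash. Right, control mice 1057, 1059 and 1172 also lie above their dash, and mouse 1143 (crosses) lies below its dash in all 5 contrasts.

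Set against the other controls, mouse 1143 was lower for members by more than for the whole panel. The members were chosen for high pooled control levels, to which this mouse gave at most 3.68% of the counts, so part of that gap is fixed by the choice. The median difference between mouse 1143 and the mean of the other controls was -1.22 on the log2 scale for members in cortical epithelium, against -0.19 for all probes, and -1.09 against -0.24 in cortical T cells. In B cells it was -0.94 against -0.21. Mouse 1143 was the lowest control mouse for 74 members in cortical epithelium (50.3% of all probes), 85 in cortical T cells (54.5%) and 66 in B cells (48.5%). The 27 strong members differed more, by -1.81, -2.07 and -2.05 in these 3 classes. Weak members rested on few counts there: 15 members were at 0 in its cortical epithelium and 21 in its B cells. Its low depth moved with its low member level, and the part of depth in that level was not tested.

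**Figure D4:**
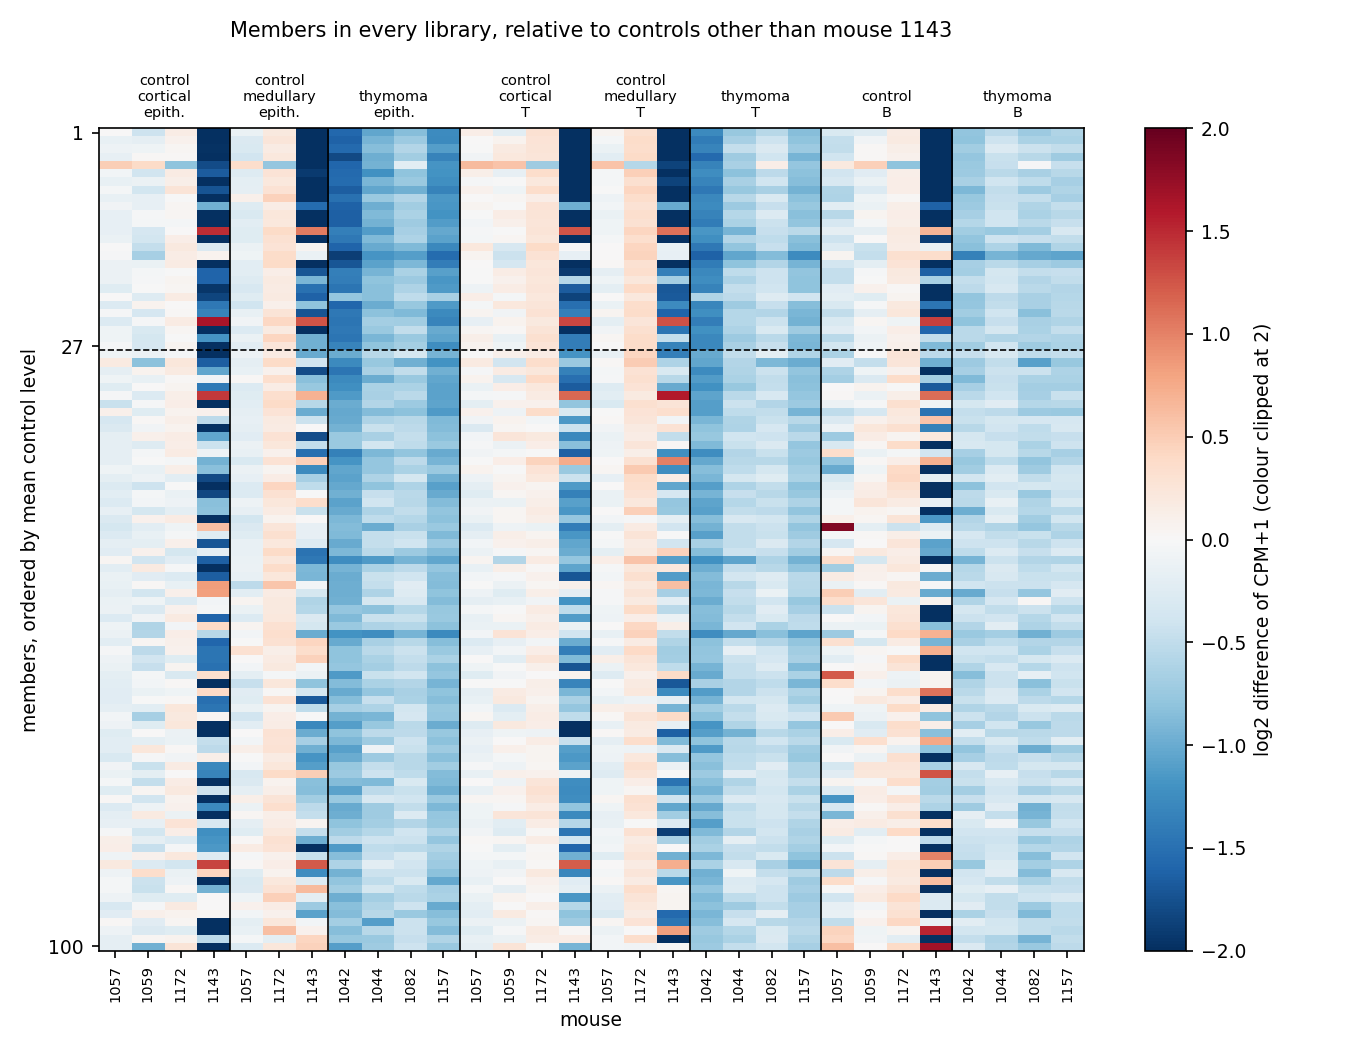
Each member (rows, strongest control signal at the top) in each of the 30 libraries (columns, by class and mouse), as the log2 difference of CPM+1 from the mean of the control libraries other than those of mouse 1143, blue for lower. Thymoma columns are blue nearly throughout, deepest in mouse 1042 epithelium, and the columns of mouse 1143 hold both the deepest blue and scattered red cells. The dashed line separates the 27 strong members from the other 73.

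Control genotype, which the choice did not use, gave no called member. Gtf2ifl/wt against Gtf2ifl/fl controls gave 0 members higher (0% of all probes) and 0 lower (0.00999%) in cortical epithelium, 0 higher (0%) and 0 lower (0%) in cortical T cells, and 0 higher (0%) and 0 lower (0.00499%) in B cells by edgeR, with 2 mice in each group. At an unadjusted p below 0.05 there were 1, 1 and 2 members in edgeR, and DESeq2 also called 0 members in all 3 classes. The comparison pairs mice 1172 and 1143, which lie far apart. When mouse 1172 was left out, so that mouse 1143 alone stood for Gtf2ifl/wt, edgeR called 12 members lower and 3 higher in cortical epithelium, where 2.24% and 3.89% of all probes were called. It called 46 lower and 5 higher in cortical T cells (14.6% and 18.2% of all probes), and 14 of 91 tested members lower in B cells (1.92%). That arm then held 1 mouse, whose spread is assumed to be that of the other arm. When mouse 1143 was left out, so that mouse 1172 alone stood for Gtf2ifl/wt, few members and few probes of the panel were called lower in these classes. Genotype and slide cannot be told apart in these mice.

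Within thymoma, the members' mean summed level was lowest in epithelium and highest in B cells, as given above. The choice read the levels of all 3 thymoma classes but put no limit on B cells against the other 2, so these counts are not independent of it. With the mouse as a block, edgeR called 15 members higher in B cells than in epithelium (11.3% of all probes were higher) and 0 lower (18.1% were lower). Of these 15, 9 were among the 27 strong members. The median log2 fold change was 0.39 for strong members, 0.12 for the other 73 and 0.04 for all probes. Without the block, 5 members were called higher (6.87% of all probes), 2 of them strong. Without 1 mouse in turn, between 2 and 34 members were called higher, where between 6.32% and 13.9% of all probes were. The highest count came without mouse 1082, and the members' share was below that of all probes without each of the other 3 mice. Against thymoma T cells, edgeR called 0 members higher (7.2% of all probes) and 0 lower (12.8%) in B cells, with 7 members at an unadjusted p below 0.05 (1 without the block) and 0 called by DESeq2. The median there was 0.08 for members and 0.03 for all probes.

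Members had a wider spread over the thymoma mice in T cells than in B cells. The median SD over the 4 thymoma mice in T cells, which the choice did not limit, was 0.27 on the log2 scale for members and 0.18 for all probes. It was 0.36 for the strong members. In thymoma B cells it was 0.14 for members and 0.15 for all probes. In cortical epithelium without mouse 1143 the median SD was 0.185 for members and 0.185 for all probes. With that mouse it was 0.70 and 0.45. Without it, the medians were 0.29 and 0.16 in medullary epithelium and 0.25 and 0.15 in medullary T cells, over 2 mice each. They were 0.14 and 0.14 in cortical T cells and 0.27 and 0.25 in B cells. Each probe's log2 level was correlated with the sum of the members' log2 levels, a member being left out of its own sum. Over the 12 thymoma libraries the correlation had a median of 0.89 for members and 0.97 for the strong members, against 0.53 for all probes. Over the 13 control libraries without mouse 1143 the medians were 0.74 and 0.37. The choice read the pooled levels of all these classes, so part of the members' higher correlation is built in. Libraries of a mouse share tissue and slide, and all libraries share the CPM scale, so these are descriptions.

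Per nucleus the groups overlapped in most classes even without mouse 1143. The members gave 39.4, 24.0 and 13.9 counts per nucleus in cortical epithelium of mice 1057, 1059 and 1172, and 14.1, 10.5, 30.8 and 25.95 in thymoma epithelium of mice 1042, 1044, 1082 and 1157. Cortical T cells had 27.5, 13.0 and 22.0 in those 3 control mice, and thymoma T cells had 15.9, 14.6, 13.9 and 15.0. Medullary T cells, at 18.9 in mouse 1057 and 18.1 in mouse 1172, were the 1 control class whose libraries other than that of mouse 1143 all lay above thymoma. Mouse 1143 had between 0.266 and 0.410 counts per nucleus in its 5 libraries. Without that mouse, mean log2 differences of control minus thymoma were 0.35 for cortical epithelium, -0.03 for medullary epithelium, 0.42 for cortical T cells, 0.32 for medullary T cells and 0.39 for B cells. The nuclei are those the labels count, and total counts per nucleus varied from 544 to 3160 over the same libraries.

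**Figure D5:**
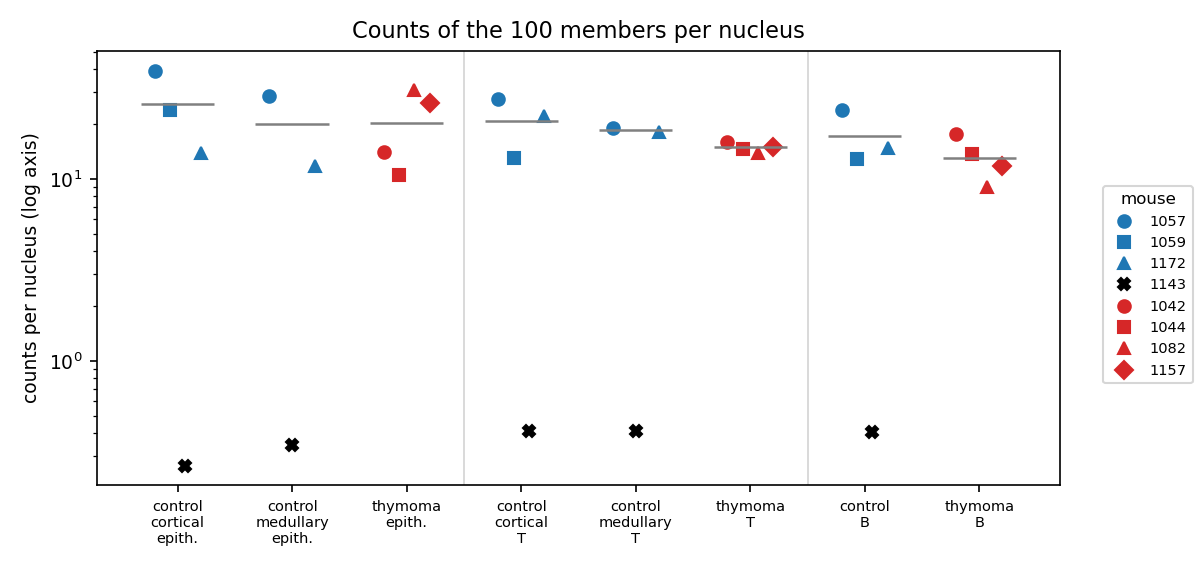
Counts of the 100 members per nucleus (log axis) by class, 1 point per mouse, with grey lines at the group mean without mouse 1143. Control points other than mouse 1143 span 11.7 to 39.4 and thymoma points span 9.01 to 30.8, so the groups overlap, and mouse 1143 lies between 0.266 and 0.410.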

How the data were processed

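Per the labels, fixed thymus was hybridised with the mouse whole transcriptome probe panel, and each segment was collected, amplified and sequenced. The files the authors deposited hold a whole-number count for each probe, 1 file a segment, made with the GeoMx NGS Pipeline 2.0.0 in DCC format 0.02, per the file headers. In part of the deposited files the count column has no usable name; those values, of unit other, were checked to be whole counts as well. Probes not listed were set to 0. Alignment details are not given in the sources used here.

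Counts were summed per mouse and class, giving 63805 to 36879809 counts per library. CPM divide by that total, without background subtraction. Members were found by the stated rule on pooled log2(CPM+1). The members and lists were chosen with earlier results of these data known. Comparisons used edgeR 4.0.16 (filterByExpr, TMM, quasi-likelihood, Benjamini-Hochberg over all probes) in R 4.3.3, with DESeq2 1.42.0 as an alternative. Summaries and plots used Python 3.11.15. The fits were tested on simulated data. Mice are the replicates, as the labels name them. Within thymoma, the block pairs classes of the same mouse, per the labels. Alternatives were other scalings, filters, pseudocounts and limits, single genotypes of controls, and each mouse left out. Held-out values, equal weights without mouse 1143, counts without the strongest member and separations without mouse 1143 were chosen after seeing the data. The named probes are the first-ranked member and, of the others, the one with the highest mean CPM. No sequence is printed, because none could be matched to a probe ID.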

Additional observations from a re-analysis of the deposited data

How the results depend on the processing

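The list depended most on how mice were weighted. With the mean over mice of log2(CPM+1) in place of pooled counts, 8 of the 100 members were chosen again (46 without mouse 1143), and with TMM-scaled pooled libraries 60. Leaving out each mouse kept between 40 and 95. Pseudocounts of 0.5 and 5 kept 96 and 81, and limits of 0.4 and 0.6 kept 92 and 97. Per nucleus, with mouse 1143 included, the mean log2 difference of the members' sum reversed to -1.27 (cortical epithelium), -1.94 (medullary epithelium), -0.98 (cortical T cells), -1.51 (medullary T cells) and -0.95 (B cells). Per area it reversed to -0.41, -1.57, -0.80, -1.497 and -1.56. Without that mouse, the values per area were 1.05, 0.22, 0.63, 0.39 and -0.20. On the CPM scale, leaving out each mouse gave 0.43 to 1.01, 0.16 to 1.10, 0.24 to 0.90, 0.02 to 0.96 and -0.15 to 0.51.

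Members called lower under upper-quartile scaling, which moved the median of all probes to -0.18, -0.31, -0.19 and -0.31, were 39 and 56 for cortical and medullary epithelium and 0 and 55 for cortical and medullary T cells, where 4.05%, 18.8%, 0% and 15.7% of all probes were called. Among probes above the median of mean CPM they were 11 of 40, 9 of 35 and 0 of 41 members tested for the epithelia and cortical T cells (1.15%, 3.98% and 0% of the probes tested). DESeq2 called 20 for cortical T cells, 18 for medullary T cells and 1 for B cells (1.69%, 1.68% and 0.00992% of all probes). With only Gtf2ifl/fl controls, 8 members were called for cortical epithelium (0.198% of all probes), 1 for cortical T cells (0.0198%) and 0 for B cells (0%). Their medulla came from mouse 1057 alone, so no count is given there. With only Gtf2ifl/wt controls, 0 were called for cortical epithelium (0.00496%), 0 for cortical T cells (0%) and 0 for B cells (0%). Medulla of these controls gave 15 for epithelium (2.44%) and 6 for T cells (0.639%). Leaving out each mouse gave 1 to 51, 0 to 51, 0 to 78, 0 to 33 and 0 to 0 members over the 5 contrasts, the highest count without mouse 1143 in the first 4. Of all probes, 0.0248% to 3.56%, 0.124% to 5.82%, 0% to 8.32%, 0% to 4.8% and 0% to 0% were called lower in these fits. Thymoma B cells against epithelium gave 43 members higher under upper-quartile scaling (24.1% of all probes) and 5 with no replicate block (6.87%). When each mouse was left out, 2 to 34 members were higher (6.32% to 13.9% of all probes) and 0 to 1 lower (12.9% to 19.9%). The pairing changed no member's call against T cells, where 0 members were called with and without the block. When each mouse was left out, 0 to 1 members were higher. Of all probes, 7.2% were called higher with the block, 5.44% without it and 5.26% to 7.72% when each mouse was left out. Control genotype, without each mouse, gave 0 to 3 higher and 0 to 12 lower, 0 to 5 and 0 to 46, and 0 to 0 and 0 to 14. The members' median for cortical T cells by genotype, -0.15, was -0.92 without mouse 1172 and reversed to 0.0701 without mouse 1143. Separation counts without mouse 1143 were 87, 97, 95, 96 and 67 members, where 24.1%, 51%, 31.1%, 51.7% and 9.39% of all probes separated. The causes were not tested. With at most 4 mice a group, 1 mouse decided most counts, and weak members of mouse 1143 rest on few counts.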

Other observations

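The members were unevenly spread over the numbering of the probes, which was noticed after their values were seen. When IDs were grouped by the start of the ID, the group that begins RTS0067 held 981 of the 20175 probes (4.86%) but 29 of the 100 members and 15 of the 27 strong members. The other members were spread over 19 further groups with at most 8 in each. The probes of that group that were not members had a median control minus thymoma difference of 0.36 in cortical epithelium, 0.38 in cortical T cells and 0.12 in B cells, against 0.20, 0.23 and 0.07 over all probes. The group that begins RTS0072 had median differences of 0.39, 0.40 and 0.08 outside the members but held only 6 members. Of the 100 probes chosen by the reversed rule, 23 were in the group that begins RTS0075, with 2 in the group that begins RTS0067. The sources used here do not say what the numbering stands for.

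The share of the sum held by the strongest member also set mouse 1143 apart. RTS0067780 made up at most 24.95% of the members' counts in mouse 1143 and at least 37.7% in every other library. RTS0067343 in that mouse was at 131 CPM in medullary T cells and 134 CPM in medullary epithelium, the lowest control value in both but above every thymoma library.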
